A study of Mus musculus with 2 samples.

Results

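Genes of fatty acid uptake and oxidation were measured in the heart of mouse embryos at embryonic day 13.5. The 40 genes were chosen by symbol from the known steps of the pathway, and all 40 were found among the 43346 Ensembl genes listed, of which 21474 were annotated as protein-coding. Total RNA was sequenced in 2 libraries that form 1 group, as replicates 1 and 2. Each library, by its labels, came from healthy hearts of strain B6NCrl, pooled from male and female embryos, with no treatment and no second genotype. The libraries are named as biological replicates, yet both stand under 1 donor entry, and the litters behind each pool are not named. The questions were therefore at what level each step was expressed, which of several related genes led it, which transcripts carried it, and how far the pools differed.

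Fatty acids are taken up from lipoproteins and albumin, bound in the cytosol and activated to acyl-CoA. Long chains cross the inner mitochondrial membrane as carnitine esters and are shortened in the beta-oxidation cycle, whose electrons pass through the electron transfer flavoprotein to the respiratory chain. The adult heart draws most of its energy from this pathway, whereas the fetal heart is known to rely more on glucose and lactate.

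Replicate 1 held 36733400 estimated reads and replicate 2 held 36060765. The unit of level is TPM, a relative abundance that corrects for transcript length and has the same sum in each library, printed per library or as mean ± SD over the libraries (n = 2). A transcript of 1 kb at 1 TPM rested on 29.3 and 27.4 reads in these libraries. Spike-in RNA took 11.1% of the TPM of replicate 1 and 5.04% of that of replicate 2. TPM was higher in replicate 2 for 36 of the 39 genes of the pathway that were detected (at 1 TPM or more in both libraries), against 81.1% of all detected protein-coding genes, and each SD holds this general shift. Among 5 cardiomyocyte markers all were detected, from Ryr2 at 8.47 ± 0.51 TPM to Actc1 at 9672 ± 1150 TPM. Of 5 adipocyte markers none was detected, with Plin1, Cidec and Lep at 0 in both libraries. In these bulk samples, fewer cells of a type and less RNA per cell cannot be told apart.

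The oxidation genes stood high among all genes. Detected were 39 of the 40 genes, against 57.3% of all protein-coding genes. At 10 TPM or more were 32 of 40 genes, against 33.9% of protein-coding genes. At 100 TPM or more were 18 of 40 genes, against 5.43%. The median of the 40 genes was 83.8 ± 5.4 TPM, beside 3.07 TPM over all protein-coding genes and 15.1 TPM over those detected. Together the 40 genes held 0.479% of all TPM in replicate 1 and 0.559% in replicate 2.

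Levels differed by step. The median was 244 ± 31 TPM for the 3 electron transfer genes and 144 ± 14 TPM for the 9 genes of the beta-oxidation cycle. It was 141 ± 11 TPM for the 3 ketone use genes and 96.7 ± 8.0 TPM for the 3 auxiliary enzymes. It was lower for uptake (63.0 ± 2.9 TPM, 6 genes), the carnitine shuttle (44.7 ± 4.8 TPM, 7 genes) and activation (21.6 ± 0.7 TPM, 4 genes). The 3 genes of malonyl-CoA control had the lowest median, 7.34 ± 0.06 TPM. The lowest cycle gene, Acads, stood above the highest activation gene, Acsl3, in each library. With transcripts annotated as protein-coding alone, uptake came to 39.3 TPM, below the shuttle at 43.97 TPM, and 1 cycle gene, Hadha, fell to 30.0 TPM, below Acsl3 at 50.2 TPM.

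**Figure D1:**
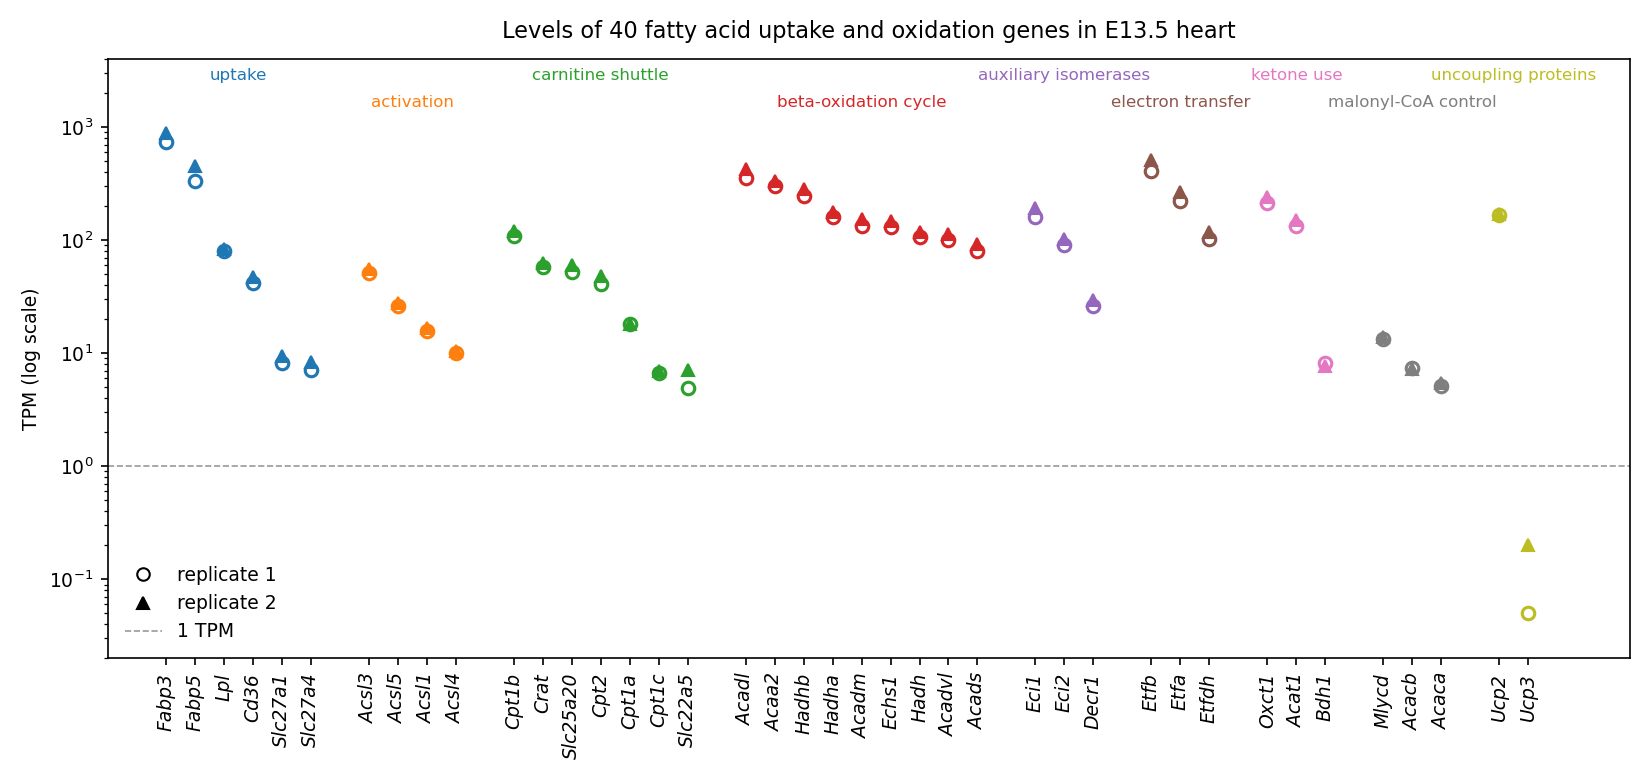
TPM of each of the 40 genes on a log axis, grouped by step and ordered by mean within a step, with replicate 1 as open circles and replicate 2 as filled triangles. The cycle and electron transfer genes lie between 80 and 510 TPM, the activation genes between 10.1 and 56.0 TPM, and Ucp3 is the 1 gene below the dashed line at 1 TPM.

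Uptake was led by cytosolic binding proteins. Fabp3, the heart and muscle fatty acid binding protein, gave 745 TPM in replicate 1 and 889 TPM in replicate 2, and ranked 116 among protein-coding genes. Fabp5, the epidermal form that is found in many tissues, gave 337 and 456 TPM. Fabp3 exceeded Fabp5 in both libraries, by a log2 ratio of 1.05 ± 0.13, or 2.08-fold. Lpl, the lipase that frees fatty acids from lipoproteins, gave 80.03 and 83.2 TPM. Cd36, the membrane receptor for long-chain fatty acids, gave 41.8 and 46.9 TPM. The membrane transport proteins were lower, with Slc27a1 (FATP1) at 8.18 and 9.54 TPM and Slc27a4 (FATP4) at 7.16 and 8.30 TPM.

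Related genes were compared within each library in 22 pairs. A pair was called ordered when its direction was shared by the libraries and the credibility intervals of TPM in the files, whose level is not stated, were apart in each. By this rule 20 of 22 pairs were ordered. The share of ordered pairs among all genes was not computed, so the count is not a trait of these families. The intervals of Slc27a1 and Slc27a4 overlapped (log2 ratio 0.20 ± 0.01), and those of Acaca and Acacb overlapped in replicate 2 (log2 ratio −0.47 ± 0.09). These intervals describe the estimate within 1 library and not the spread between embryos. They lie around the posterior mean TPM, which was inside for all 40 genes in each library, whereas the TPM printed here was inside for 37 genes in replicate 1 and 35 in replicate 2. It lay above the interval for Fabp3, Acadl and Acaa2 in both libraries and for Fabp5 and Etfb in replicate 2.

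**Figure D2:**
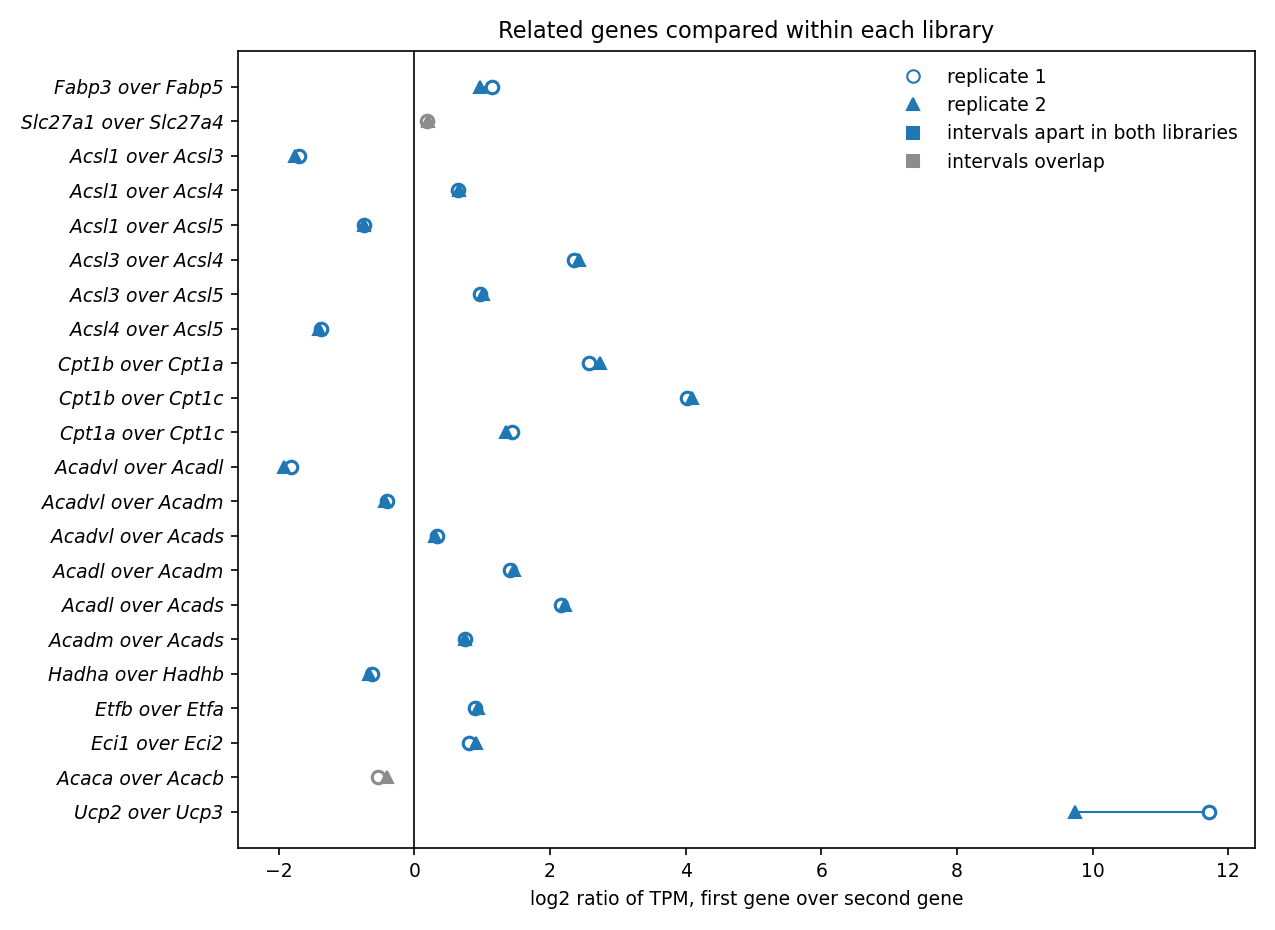
Log2 ratio of TPM of the first over the second gene of each of 22 pairs, 1 pair to a row, with replicate 1 as open circles and replicate 2 as triangles; blue marks pairs whose intervals were apart in both libraries. Apart from the Ucp2 over Ucp3 pair, where Ucp3 rested on 3 and 12 reads, each pair's values lie close together, and the 20 blue pairs include Cpt1b over Cpt1c at 4.06 and Acadvl over Acads at 0.32.

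Activation of long-chain fatty acids to acyl-CoA was carried by 4 synthetase genes with a clear order. Acsl3, which is known from lipid droplets and the endoplasmic reticulum, led with 51.5 and 56.0 TPM. Acsl5 followed at 26.4 and 27.7 TPM. Acsl1, the main form of the adult heart, gave 15.8 and 16.6 TPM. Acsl4, which prefers arachidonic acid, gave 10.11 and 10.46 TPM. All 6 pairs among them were ordered. Acsl3 exceeded Acsl1 by 3.32-fold and Acsl4 by 5.22-fold, and Acsl1 exceeded Acsl4 by 1.57-fold.

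In the carnitine shuttle the muscle form of the outer enzyme led. Cpt1b, the muscle carnitine palmitoyltransferase, gave 108 and 120 TPM in replicates 1 and 2. Cpt1a, the liver form, gave 18.1 and 18.0 TPM, and Cpt1c, the brain form, gave 6.65 and 7.02 TPM. Each of these pairs was ordered, and Cpt1b exceeded Cpt1c by 16.7-fold. The other mitochondrial members lay close to each other. Crat, the carnitine acetyltransferase, gave 57.6 and 63.1 TPM, Slc25a20, the carnitine-acylcarnitine translocase, gave 52.8 and 59.8 TPM, and Cpt2, the inner membrane enzyme, gave 41.3 and 48.1 TPM. Slc22a5, the plasma membrane carnitine transporter OCTN2, was the lowest of the step at 4.96 and 7.09 TPM.

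Within the beta-oxidation cycle the acyl-CoA dehydrogenases, which differ in the chain length they take, were ordered in all 6 pairs. Acadl, the long-chain enzyme, led with 357 and 429 TPM. Acadm, the medium-chain enzyme, gave 134 and 154 TPM. Acadvl, the very-long-chain enzyme, gave 101 and 114 TPM, and Acads, the short-chain enzyme, gave 80 and 92.1 TPM. Acadl exceeded Acadm by 2.72-fold and Acads by 4.56-fold. The smallest ordered gap of the family, Acadvl over Acads, was a log2 ratio of 0.32 ± 0.02.

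The later steps of the cycle were also high. Acaa2, the mitochondrial thiolase, gave 300.3 and 334 TPM. Echs1, the short-chain enoyl-CoA hydratase, gave 131 and 148 TPM, and Hadh, the hydroxyacyl-CoA dehydrogenase, gave 107 and 118 TPM. Hadhb, the beta subunit of the mitochondrial trifunctional protein, gave 248 and 283 TPM. Hadha, its alpha subunit, gave 161 and 178 TPM. Over all listed transcripts Hadhb thus exceeded Hadha by 1.57-fold; the proteins form 1 complex.

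Hadha and Hadhb are neighbours on chromosome 5 and are read in opposite directions. Hadha lies on the minus strand at chr5:30118304-30155162 and Hadhb on the plus strand at chr5:30155248-30184593 (GRCm38, GENCODE M21), with 85 bases between their annotated starts. That stretch is shown because a single short region separates the start sites of the 2 subunits. It is given on the plus strand from RefSeq's promoter table (GRCm38.p6), at chr5:30155163-30155247. Capitals mark the core of the GC box, GGGCGG on either strand:
Hadha-Hadhb: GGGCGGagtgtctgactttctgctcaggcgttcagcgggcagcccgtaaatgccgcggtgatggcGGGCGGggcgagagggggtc
The stretch held 2 such matches and was 69.4% G and C, beside a median of 60.7% over the genes' own promoter windows and 52.7% over all windows in the table.

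The auxiliary enzymes, which bring double bonds of unsaturated chains into place, gave 3 levels. Eci1 gave 159 and 191 TPM, and Eci2, which is also found in peroxisomes, gave 91.0 and 102 TPM, an ordered pair at 1.81-fold. Decr1, the dienoyl-CoA reductase, was lower at 26.4 and 29.7 TPM. By its median, electron transfer stood above these, although Etfdh lay below Eci1 in both libraries. Etfb, the beta subunit of the electron transfer flavoprotein, gave 410 TPM in replicate 1 and 510 TPM in replicate 2. Etfa, its alpha subunit, gave 222 and 266 TPM, so Etfb exceeded Etfa by 1.88-fold. Etfdh, the dehydrogenase that passes their electrons to ubiquinone, gave 102 and 118 TPM.

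Ketone bodies enter the same acetyl-CoA pool. Oxct1, the rate-limiting enzyme of ketone use, gave 211 and 243 TPM, and Acat1, the thiolase that follows it, gave 133 and 150 TPM. Bdh1, which converts hydroxybutyrate to acetoacetate ahead of both, was far lower at 8.19 and 7.68 TPM. Malonyl-CoA inhibits the Cpt1 enzymes. Mlycd, which degrades it, gave 13.2 and 14.0 TPM. The synthesizing enzymes were lower, with Acacb, the mitochondria-associated form, at 7.38 and 7.29 TPM and Acaca, the cytosolic form, at 5.09 and 5.50 TPM.

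The uncoupling proteins differed the most of any pair. Ucp2, which is widely expressed, gave 168 and 172 TPM from 5128 and 4884 reads. Ucp3, the muscle form whose level follows fatty acid supply in adult muscle, gave 0.05 and 0.20 TPM from 3 and 12 reads. From reads per effective length, the ratio of Ucp2 to Ucp3 was 3673 in replicate 1, with an exact Poisson 95% interval of 1257 to 17811 from the Ucp3 reads. It was 867 in replicate 2, with an interval of 496 to 1678. These intervals cover counting error only.

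Ucp3 and Ucp2 lie on the plus strand of chromosome 7, with 6904 bases between the end of Ucp3 and the start of Ucp2. The bases upstream of both annotated starts are shown because these neighbours had the lowest and one of the higher levels among the 40 genes. They run 5′ to 3′ on the plus strand, from RefSeq's promoter table (GRCm38.p6), at chr7:100472741-100472989 for Ucp3 and chr7:100493108-100493336 for Ucp2. Capitals mark the GC box core and the core site of many nuclear receptors, spelled AGGTCA, on either strand:
Ucp3: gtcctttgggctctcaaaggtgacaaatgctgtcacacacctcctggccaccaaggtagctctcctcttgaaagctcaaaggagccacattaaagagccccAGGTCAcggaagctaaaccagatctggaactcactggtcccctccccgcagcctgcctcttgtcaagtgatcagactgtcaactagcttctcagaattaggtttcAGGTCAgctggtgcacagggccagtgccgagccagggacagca
Ucp2: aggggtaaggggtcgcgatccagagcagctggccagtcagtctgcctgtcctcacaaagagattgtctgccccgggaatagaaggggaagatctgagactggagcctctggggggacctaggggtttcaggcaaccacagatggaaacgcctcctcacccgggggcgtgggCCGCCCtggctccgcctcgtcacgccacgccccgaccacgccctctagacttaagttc
The Ucp3 stretch held 2 receptor core sites and 0 GC box cores, and the Ucp2 stretch held 1 GC box core and 0 receptor core sites.

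Promoter windows of 300 bases, from 250 before to 50 after each RefSeq start, were in the table for 33 of the 40 genes, as 37 windows. Both motifs and the TATA box, spelled TATAAA, were searched on both strands, and none of the 3 holds another. The windows are not independent: Slc27a1 has 3 of them, Acsl1 and Bdh1 have 2 each, and those of Hadha and Hadhb share 228 bases. The GC box core was in 24 of the 37 windows (64.9%), against 35.7% of all 32851 windows, and in at least 1 window of 23 of the 33 genes (69.7%), against 38.2% of all 27025 genes in the table. The receptor core site was in 8 of 37 windows (21.6%), those of Acacb, Acadm, Acadvl, Cd36, Cpt1a, Cpt1c, Echs1 and Ucp3, against 16.3% of all windows. The TATA box was in 1 of 37 windows, that of Acacb, against 13.6% of all. Here all windows and genes are those of the whole table, which was not limited to protein-coding or detected genes. The median G and C content was higher in the genes' windows, as given above, and its part in the motif counts was not tested.

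Most genes were carried by 1 protein-coding transcript. The files listed 1 transcript for 7 of the genes and 2 or more for 33, and the leading transcript by TPM was the same in both libraries for all 33. Of the 33, 27 were at 10 TPM or more in both libraries, the level also used for all protein-coding genes. At that level the leader was the same in 94.7% of protein-coding genes with 2 or more listed transcripts. Among these 27, the same transcript held more than 80% of the gene's TPM in both libraries in 16 genes. The same transcript did so in 37.5% of the 5570 protein-coding genes that met the same criteria. It held more than 50% in 22 of the 27 genes, against 73.1%. Examples were Cpt1b-201 at 99.6% ± 0.2, Acadl-201 at 99.9% ± 0.1 and Etfb-201 at 99.6% ± 0.2. The share of TPM in protein-coding transcripts had a median of 98.0% over these 27 genes, beside 92.7% over the 5570.

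A few genes went the other way. The leading transcript was not annotated as protein-coding in 3 of the 27 genes, against 7.65% of the 5570. Of Hadha, Hadha-201, a processed transcript of 2554 bases in the files, held 53.9% in replicate 1 and 52.6% in replicate 2, and the coding Hadha-205 held 17.9% and 17.6%. Of Lpl, Lpl-203, a candidate for nonsense-mediated decay, held 58.6% and 56.2%, and the coding Lpl-201 held 40.8% and 43.1%. Of Ucp2, Ucp2-208, a processed transcript of 464 bases, held 34.9% in each library, and the coding transcripts together held 54.0% ± 1.1. The classes come from GENCODE M21, a later release than the M4 annotation of the files, and Hadha-201 and Ucp2-208 have another version there.

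The shares of short transcripts depend on the correction for length. Counted as reads without it, 1 of the 3 genes was still led by a transcript not annotated as coding, which was Hadha: Hadha-201 held 62.7% of its reads and the coding transcript 33.3%. Reads of Lpl lay in coding Lpl-201 by 61.6%, and Ucp2-202, a coding transcript of 3988 bases, held 59.0% of the reads of Ucp2. With coding transcripts alone, Hadha came to 30.0 ± 1.7 TPM, Lpl to 34.2 ± 2.3 TPM and Ucp2 to 91.7 ± 3.4 TPM. The log2 ratio of Hadha over Hadhb then moved from −0.65 to −3.13, with Hadhb still the higher.

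Several genes were split among coding transcripts. Of Cd36, Cd36-204 held 46.6% and 49.2%, and 3 other coding transcripts held the rest. Eci2, with 13 listed transcripts, was led by Eci2-211 at 36.7% and 37.9%. By TPM, Oxct1 was divided among the coding Oxct1-205 (36.6% ± 1.2) and Oxct1-201 (31.4% ± 1.0) and the processed transcript Oxct1-202 (32.0% ± 0.2). Counted as reads, Oxct1-201 led with 59.8%, Oxct1-205 held 33.5% and Oxct1-202, of 480 bases, held 6.77%. Acsl4-203 held 48.7% of Acsl4 in replicate 1 and 70.9% in replicate 2, and Acsl4-202 held 24.4% and 3.86%, while the level of the gene was 10.11 and 10.46 TPM. Of the genes below 10 TPM, Bdh1 and Acacb were each led by a transcript below 50% in at least 1 library, with a retained-intron transcript, Acacb-204, at 28.8% ± 0.6 of Acacb.

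**Figure D3:**
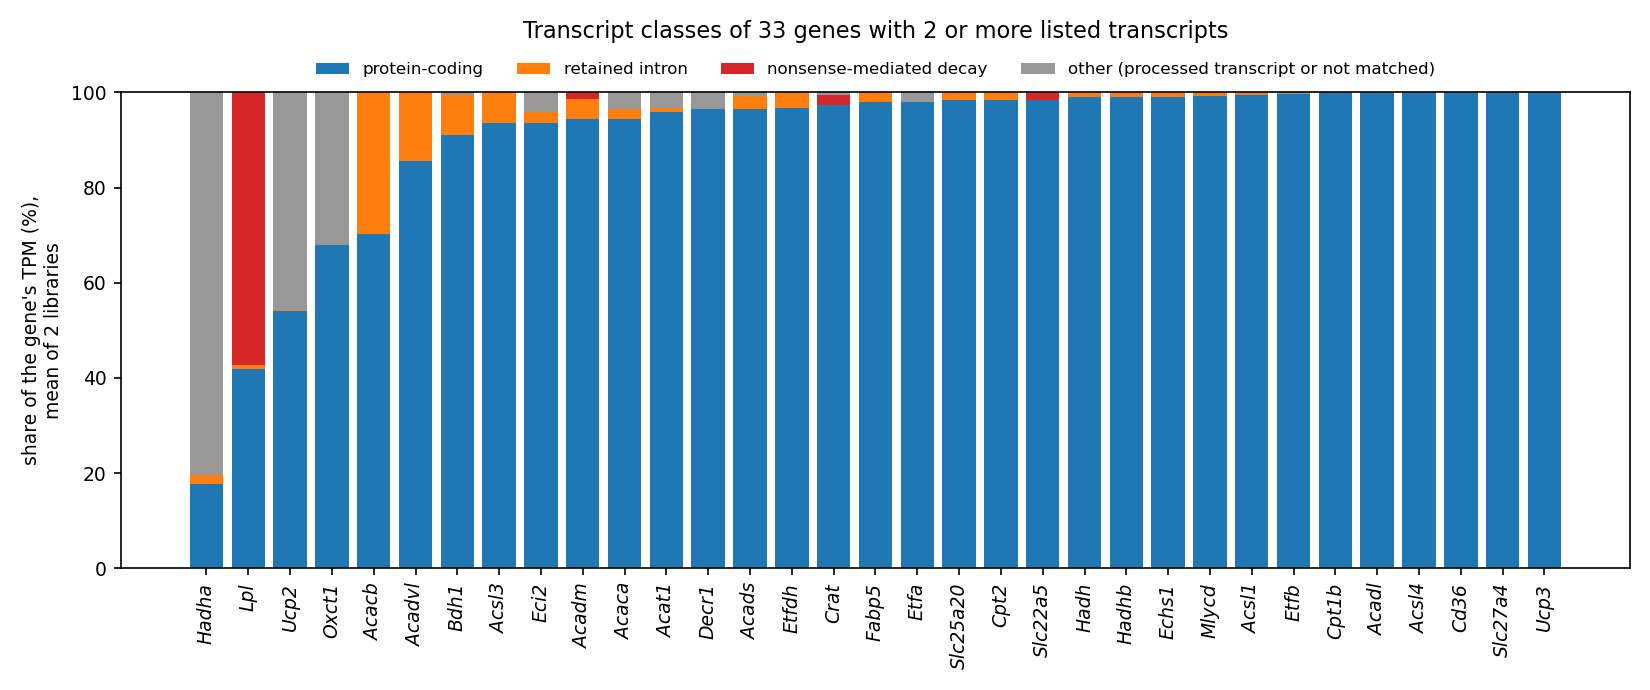
Share of each gene's TPM by annotated class of transcript, as the mean of 2 libraries in percent, for the 33 genes with 2 or more listed transcripts, ordered by the protein-coding share. Hadha, Lpl, Ucp2, Oxct1 and Acacb have coding shares of 17.7%, 41.9%, 54.0%, 68.0% and 70.2%, and the bars to their right are largely coding.

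Ratios of replicate 2 to replicate 1 were taken on scaled counts (TMM) for genes with a mean count of at least 50, which 39 of the 40 genes passed and Ucp3 did not. With 1 library on each side these ratios carry no test. None of the 39 genes was 1.5-fold higher or lower in replicate 2, against 1.84% of all 13763 genes that were higher and 1.59% that were lower. At a mean count of at least 200, which the same 39 genes passed, these shares of all genes were 0.526% and 0.339%, so the count of 0 is near the background. The median log2 ratio was 0.02, with a range from −0.23 for Acaca to 0.34 for Slc22a5. Above 0 were 25 of the 39 genes, against 49.6% of all genes. By the ratio of TPM, Acaca had a log2 value of 0.11, beside a median of 0.15 over all genes.

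Steps leaned to different sides within this narrow range. Relative to the median of all genes, the 4 synthetase genes of activation lay below it (log2 −0.10 to −0.04), as did the 3 genes of malonyl-CoA control (−0.23 to −0.07). The 3 electron transfer genes lay above it (0.06 to 0.17), as did 8 of the 9 cycle genes, with Hadha at −0.02. Of those 8, Hadh at 0.003 and Acaa2 at 0.01 were barely above the median. Acsl1, at −0.04, rested on 1637 and 1640 reads. Counting error was not set against these small ratios. Scaling to the spike-ins moved the median of all genes to 1.29 and that of the 39 genes to 1.31. The ratio of TPM moved them to 0.15 and 0.17. Spike-in scaling shifts all genes by nearly the same amount, so it could hardly change sides relative to the median of all genes. By the ratio of TPM the stated sides were those of the scaled counts, except for Hadh, which lay just under the median.

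The 3 largest ratios were those of Slc22a5 (scaled counts 438 and 553, log2 0.34), Fabp5 (9365 and 11440, log2 0.29) and Bdh1 (350 and 426, log2 0.28). For Bdh1 the TPM went the other way (log2 −0.09), and its transcript of 3122 bases, Bdh1-203, held 17.2% of its TPM in replicate 1 and 38.2% in replicate 2. Markers of several cell types also differed between the pools. All 7 hepatocyte markers were at least 1.5-fold higher in replicate 2 (median log2 2.74), with a summed level of 44.4 TPM in replicate 1 and 316 TPM in replicate 2, led by Afp at 21.99 and 165 TPM. Of 5 erythroid markers 4 were at least 1.5-fold lower in replicate 2 (median −0.84), with sums of 36753 and 22272 TPM. All 5 macrophage markers (median −0.41) and all 3 epicardial markers (−0.36) were lower in replicate 2. So were all 3 fibroblast markers (−0.44), with Col1a1 past 1.5-fold. By the ratio of TPM all of these markers lay below the median of all genes, although that of Tbx18 was above 0. With spike-in scaling, which shifts all genes by nearly the same amount, the ratios of these markers were above 0. Their summed levels in replicates 1 and 2 were 72.3 and 60.4 TPM for macrophages, 734 and 559 TPM for fibroblasts and 92.3 and 77.1 TPM for the epicardium. Of 3 skeletal muscle markers with enough reads, Myog (log2 1.19) and Atp2a1 (0.84) were higher and Mybpc2 (−0.35) was lower, with sums over 5 markers of 4.42 and 7.5 TPM. The 5 cardiomyocyte markers had a median of −0.02, the 5 endothelial markers −0.10 and 4 neuron markers −0.24. The part of these cell types in the ratios of Slc22a5, Fabp5 and Bdh1 was not tested.

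**Figure D4:**
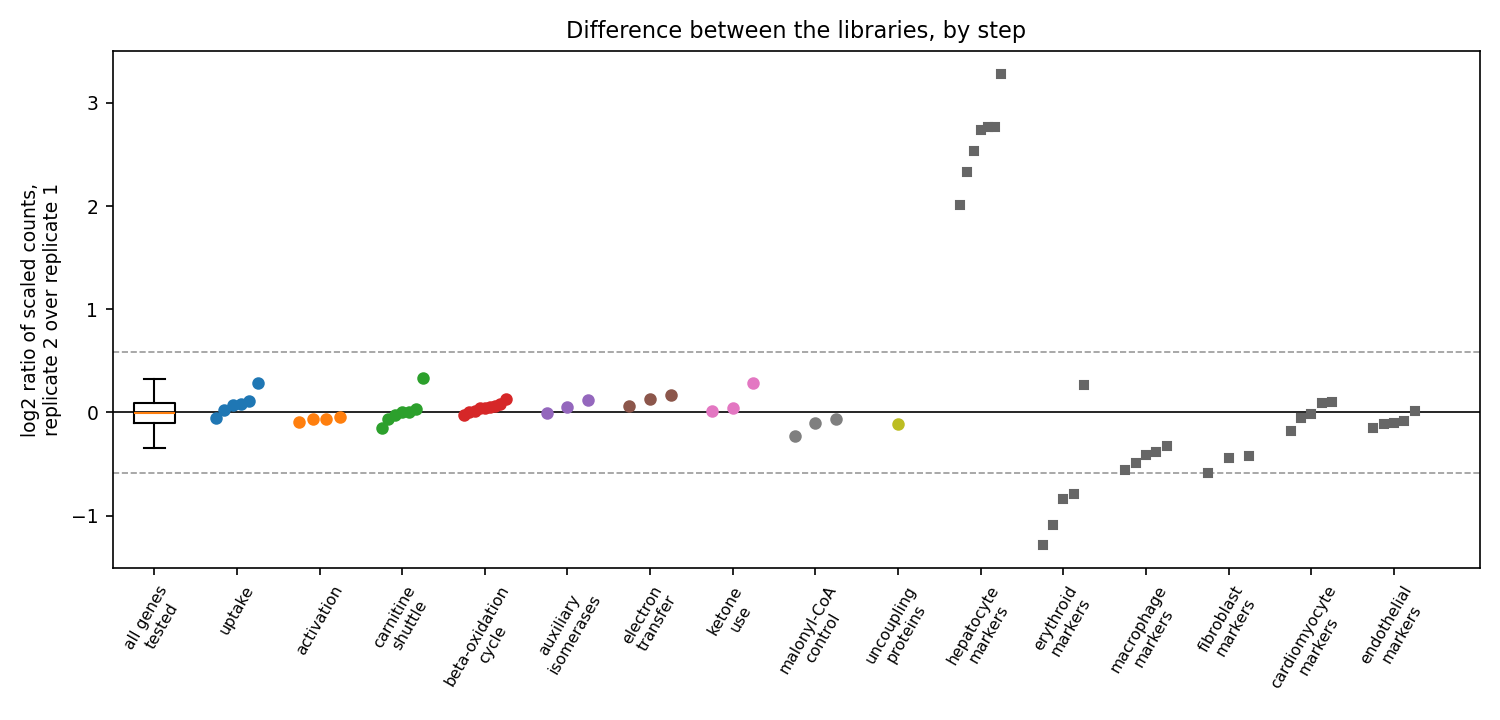
Log2 ratio of scaled counts, replicate 2 over replicate 1, for each gene of a step (circles) and for markers of 6 cell types (squares); the box shows the quartiles of all 13763 genes with whiskers at percentiles 5 and 95, and dashed lines mark 1.5-fold. The 39 genes lie between −0.23 and 0.34, inside the dashed lines, while the hepatocyte markers lie between 2.01 and 3.28.

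Around the core pathway, 56 of 65 other genes of fatty acid handling were detected, again beside 57.3% of protein-coding genes, with a median of 15.2 ± 0.4 TPM. Acyl-CoA handling was led by Dbi, the acyl-CoA binding protein, at 541 ± 84 TPM, and by the thioesterases Acot13 at 179 ± 25 and Acot7 at 63.4 ± 8.4 TPM. Of this step 8 of 9 genes were detected, and Acsl6, a synthetase of brain, was at 0.45 ± 0.25 TPM. All 14 other mitochondrial enzymes and transporters were detected, and among them Hsd17b10, a dehydrogenase of branched-chain and short-chain acyl-CoA, gave 144 ± 22 TPM and Ivd, the isovaleryl-CoA dehydrogenase, gave 56.5 ± 4.9 TPM.

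Of the genes of peroxisomal oxidation, 10 of 11 were detected, beside the same 57.3% of protein-coding genes. The highest were Scp2 at 152 ± 14, Hsd17b4 at 70.4 ± 6.8 and Acaa1a at 67.3 ± 7.6 TPM, and the transporter Abcd2 stood at 0.66 ± 0.01 TPM. Among 18 genes of lipid supply and storage, 13 were detected. Fabp4, the binding protein of fat cells and endothelium, led at 56.1 ± 10.4 TPM, followed by the lipid droplet coat protein Plin2 at 53.8 ± 3.5 and the lipase Pnpla2 at 34.8 ± 0.5 TPM. Plin5, a droplet protein of oxidative tissues, gave 0.36 TPM in replicate 1 and 0.15 TPM in replicate 2. Slc27a5 and Fabp2, of liver and gut, were at 0.21 ± 0.04 and 0.17 ± 0.18 TPM. Fabp1, the liver binding protein, gave 0.38 and 4.58 TPM, and Slc27a2 gave 0.61 and 2.08 TPM, both higher in the library with more hepatocyte marker RNA, whose part in these levels was not tested.

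Regulators of the pathway were detected in 11 of 13 cases, beside the same 57.3% of protein-coding genes. The coactivator Ppargc1a led with 33.6 and 39.6 TPM. The kinase subunit Prkaa2, whose complex inhibits the acetyl-CoA carboxylases, followed at 23.7 and 27.8 TPM, and the orphan receptor Esrra at 21.8 and 25.3 TPM. Not counted as detected were Ppard, at 1.00 and 0.91 TPM, and Pparg, at 0.82 and 1.21 TPM.

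**Figure D5:**
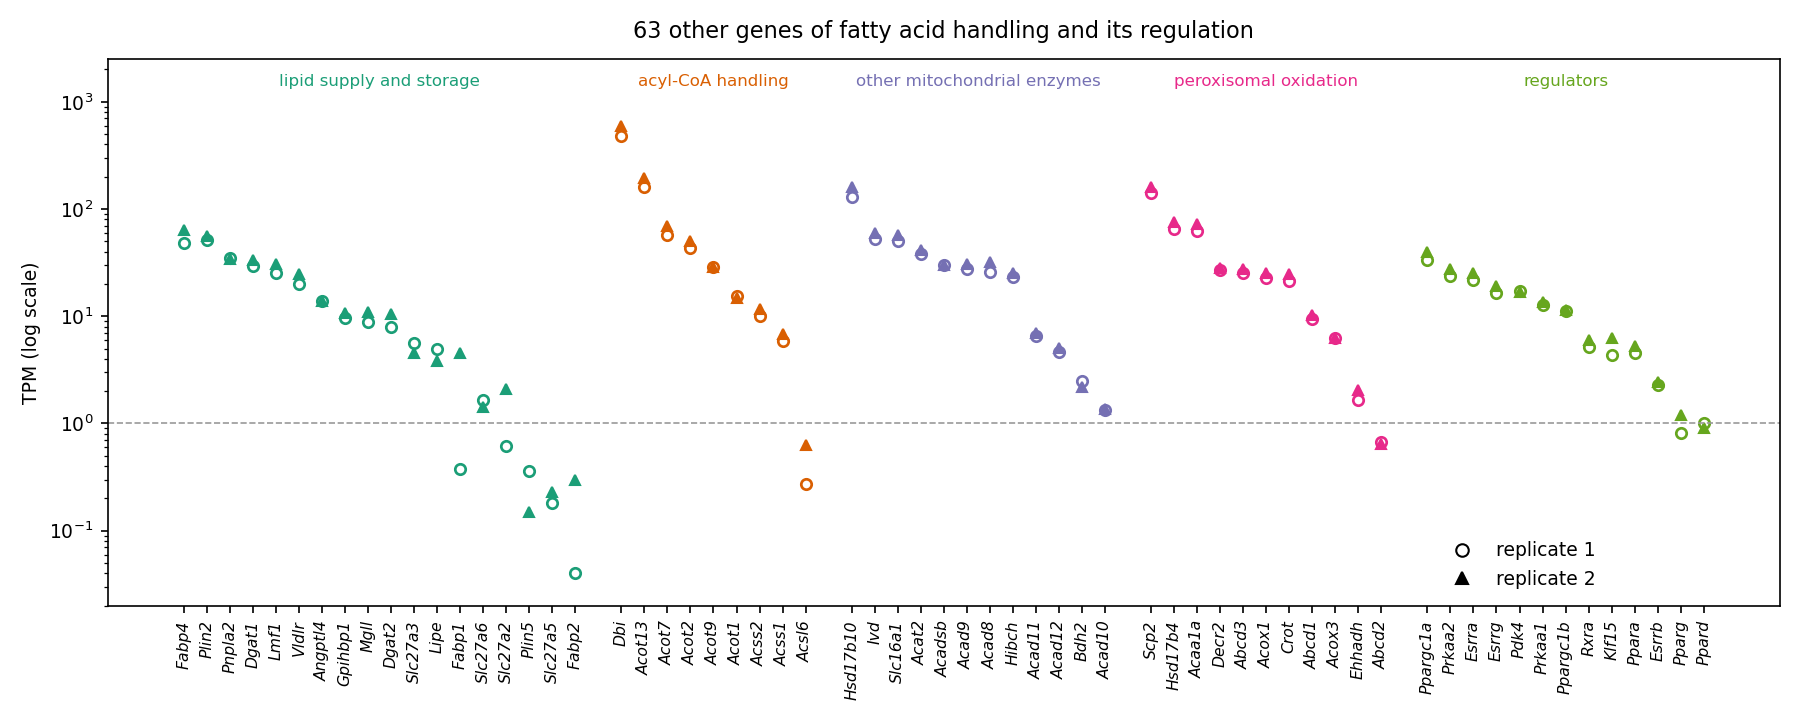
TPM on a log axis of 63 of the 65 other genes of fatty acid handling and its regulation, by group and ordered by mean, with replicate 1 as open circles and replicate 2 as filled triangles; the dashed line marks 1 TPM. Dbi stands highest at 481 and 601 TPM, and 5 of the 9 genes not detected belong to lipid supply and storage.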

How the data were processed

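The deposited files give expected counts per gene and transcript, with no normalization, and TPM scaled over all listed features, spike-ins included, per the file headers. Posterior mean TPM, bounds of a credibility interval of TPM (the signal columns, level not stated), effective lengths and the percent of a gene's TPM per transcript are also as deposited by the authors. Per the labels, the assembly is mm10; an aligner and a quantifier are not named in the sources used here. Gene identifiers, less their version, were looked up in GENCODE M21 (42462 of 43346 genes). M21 also gave gene names, coordinates and transcript classes. Of 182 transcripts of the 40 genes, 180 matched and 162 had the same length. Expected counts split shared reads: they were not whole, within 0.005, for 13 of the 40 genes (Fabp3, Fabp5, Acsl3, Slc22a5, Cpt1b, Crat, Acadvl, Hadhb, Eci2, Etfa, Etfdh, Bdh1 and Oxct1).

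The 40 genes and all lists were chosen with earlier results of these data known. Named were all 40 genes, pairs, genes not led at over 50% by 1 transcript in both libraries, the 3 highest genes of each other list and those not detected, and the hepatocyte and erythroid markers; Ryr2, Actc1, the adipocyte genes, the remaining transcripts and the printed promoters were chosen after their values were seen. Some genes are not reported here. Counts were rounded and scaled with edgeR 4.0.16 (TMM) in R 4.3.3, from 16410 genes, with 0.5 added; DESeq2 1.42.0 size factors were an alternative. The scaling was tested on simulated data. No p-value was computed, since each side is 1 library. Other steps used Python 3.11.15, pandas 2.3.3, numpy 2.4.6 and matplotlib 3.10.9. The sources used here name no molecular identifiers, so reads need not be independent molecules. Promoter windows are RefSeq's; those of Acaa2, Acat1, Cpt1b, Crat, Decr1, Fabp5 and Lpl were not used here.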

Additional observations from a re-analysis of the deposited data

How the results depend on the processing

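No paired analysis was possible because there is 1 group. Without replicate 1 or 2, the median of the 40 genes was 87.6 or 80.02 TPM, and 39 genes were detected either way. Rescaling TPM over nuclear protein-coding genes without globins and spike-ins multiplied all values (1.60 and 1.40 in replicates 1 and 2). The median became 125 TPM for the 40 genes, 94.3 for uptake, 32.4 for activation, 66.8 for the shuttle and 215 for the cycle. It became 144 TPM for the auxiliary enzymes, 364 for electron transfer, 211 for ketone use, 11.01 for malonyl-CoA control and 127 for uncoupling proteins. Coding transcripts alone, an alternative chosen after seeing the data, gave 57.1 TPM for the 40 genes, 39.3 for uptake (44.0 for the shuttle), 5.15 for malonyl-CoA control and 45.9 for uncoupling proteins, and 39 genes detected. Posterior means gave 7.44 TPM for malonyl-CoA control.

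The 20 ordered pairs kept their direction in each of 6 alternatives, of which reads without length correction was also chosen after seeing the data. Where levels were recomputed, the call kept the intervals of the main TPM, so only the direction could change. Leaving out a library could not undo a pair that was ordered in both. Reads per effective length, another alternative, are nearly proportional to TPM within a library. These alternatives were therefore no check of the 20 pairs. By reads, 21 of all 22 pairs kept their direction. Acaca and Acacb became the 21st ordered pair without replicate 2. With spike-in scaling 39 genes were 1.5-fold higher in replicate 2, as were 99% of all genes. With no minimum count it was 1 gene, Ucp3, beside 8.76% of all genes, and at the lower fold threshold tried it was 1 gene, Slc22a5, beside 4.97% of all genes. Genes led by a transcript not annotated as coding fell from 3 to 1 by reads, which gives long transcripts more weight. Genes with 1 transcript over 80% numbered 16 to 18 across the other share measures. Of 65 other genes, 60 were detected at 0.5 TPM and 46 at 5 TPM. The shares of all protein-coding genes at these thresholds were not computed. Depth limits Ucp3, with 3 and 12 reads.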

Other observations

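Exons of 16 of the 40 genes overlap those of another gene in GENCODE M21, and for 13 of them the partner lies on the opposite strand. No source used here says whether reads were counted by strand, and reads of such partners cannot be told apart without it. The partners with the highest levels were Zdhhc6, opposite Acsl5, with 37.3 and 43.1 TPM, and Zcchc17, opposite Fabp3, at 37.1 and 41.1 TPM. Next came 4930579G24Rik, opposite Etfdh, with 16.4 and 19.6 TPM, Dvl2, opposite Acadvl, with 16.0 and 17.9 TPM, Dolpp1, opposite Crat, with 14.6 and 19.1 TPM, and Paox, opposite Echs1, with 12.4 and 16.8 TPM. How far these overlaps moved the values of Acsl5, Fabp3, Etfdh, Acadvl, Crat and Echs1 was not tested.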
